A study of Saccharomyces cerevisiae with 14 samples.

Results

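Yeast cells adjust the output of ribosomal genes through a small set of transcription factors, cofactors and kinases, and 10 of their genes are described here: SFP1, IFH1, FHL1, HMO1, CRF1, STB3, DOT6, TOD6, SCH9 and MRS6. They were picked by name, and a probe set counted when the platform annotation gave it exactly 1 budding yeast gene and that gene was on the list. All 10 were found, out of 5449 genes measured. Each had 1 probe set, and none of the 10 probe sets carried the suffix for probes shared with other genes. By locus tag they are YLR403W, YLR223C, YPR104C, YDR174W, YDR223W, YDR169C, YER088C, YBL054W, YHR205W and YOR370C, in the order above.

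The cells were wild-type YSBN6 budding yeast, with no mutation or transgene named in the labels. They grew exponentially in fermentors at 30 °C and pH 5 in minimal medium, with glucose (20 g/L) as the sugar and glutamine (1 g/L) as the nitrogen source, and received rapamycin to 400 µg/L in a single pulse. Rapamycin blocks TOR complex 1 (TORC1), a kinase complex that couples growth to nutrients. Total RNA was hybridised to 14 Affymetrix arrays from 3 fermentations, BY005, BY006 and BY007. Each fermentation gave an array 10 min before the pulse (called steady state), at 7 min and at 24 min, so these groups hold 3 arrays each. BY005 alone gave 1 array each at 3, 10, 14, 56 and 120 min. Since every culture was treated, effects of rapamycin and of time in the fermentor cannot be told apart.

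In growing cells, Fhl1 sits at ribosomal protein promoters next to Rap1 and holds the coactivator Ifh1, while Hmo1, a high-mobility-group protein, binds many of the same promoters and the ribosomal DNA. Sfp1, a zinc finger protein kept in the nucleus by TORC1 signalling and bound by the Rab escort protein Mrs6, activates both ribosomal protein and ribosome biogenesis genes. Dot6 and Tod6 bind the PAC element and Stb3 the RRPE element of ribosome biogenesis promoters, where they recruit the histone deacetylase Rpd3, and the TORC1 substrate kinase Sch9 holds them off by phosphorylation. Crf1 was described as a corepressor that takes the place of Ifh1 on Fhl1, in some strain backgrounds. Much of this control acts on proteins, by phosphorylation and nuclear transport, which arrays of mRNA do not see.

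Levels are log2 of the deposited RMA intensities, and a change is a difference of such levels. A gene was called when its Benjamini-Hochberg adjusted p, over all 5449 genes in limma, was under 0.05. A ± marks the standard error from limma, except where SD is named. Where 3 levels are listed for a group, they come in the order BY005, BY006, BY007. RNA came from whole cultures, so less of an mRNA in every cell and its loss from some cells cannot be told apart. The background was taken from fission yeast probe sets, whose 95th percentile lay at 5.63. Among the arrays, the median gene level ran only from 10.64 to 10.79, and the median gene had an SD of 0.07 at steady state, 0.09 at 7 min and 0.08 at 24 min. The mean of the 18 hybridization control probe sets was less even, from 8.58 to 11.74 over all arrays and from 9.50 to 11.74 within steady state. Scaling to these controls moved the median of all genes by 1.02 at 24 min against steady state, with a median standard error of 0.86. Directions below are therefore relative to the other genes on an array.

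**Figure D1:**
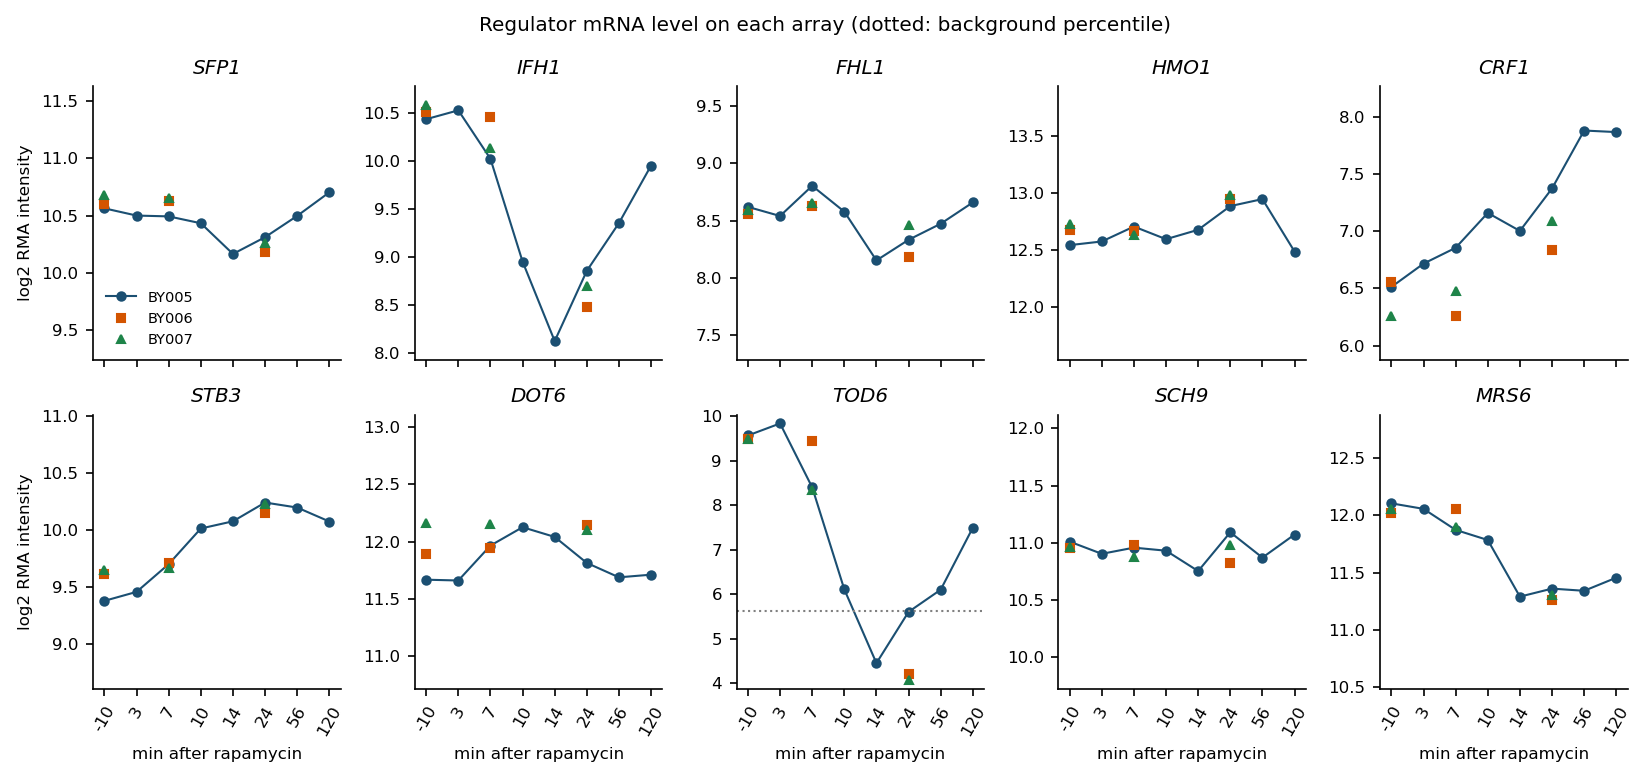
mRNA level (log2 RMA intensity) of the 10 regulator genes on each of the 14 arrays, against min after rapamycin (evenly spaced, not to scale; -10 is steady state). Points are single arrays, the line joins BY005, each panel spans at least 2 log2 units, and the dotted line is the background percentile of 5.63, which TOD6 alone crossed: it stood below it on the 14 min array and on all 3 arrays at 24 min.

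By 24 min the regulators had moved in different directions. TOD6 fell out of the measurable range, IFH1 fell 3.57-fold, and MRS6, SFP1 and FHL1 fell by less. STB3, CRF1 and HMO1 rose, and DOT6 and SCH9 were not called. That made 8 of 10 called, 3 up and 5 down, against 75.0% of all genes called in the same comparison, so the number called was near the background. The median size of the change was 0.51 among the 10 and 0.41 among all genes. The share of all genes whose 24 min arrays lay apart from the steady-state arrays was not counted. Statements below that groups did not overlap therefore have no background share beside them.

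**Figure D2:**
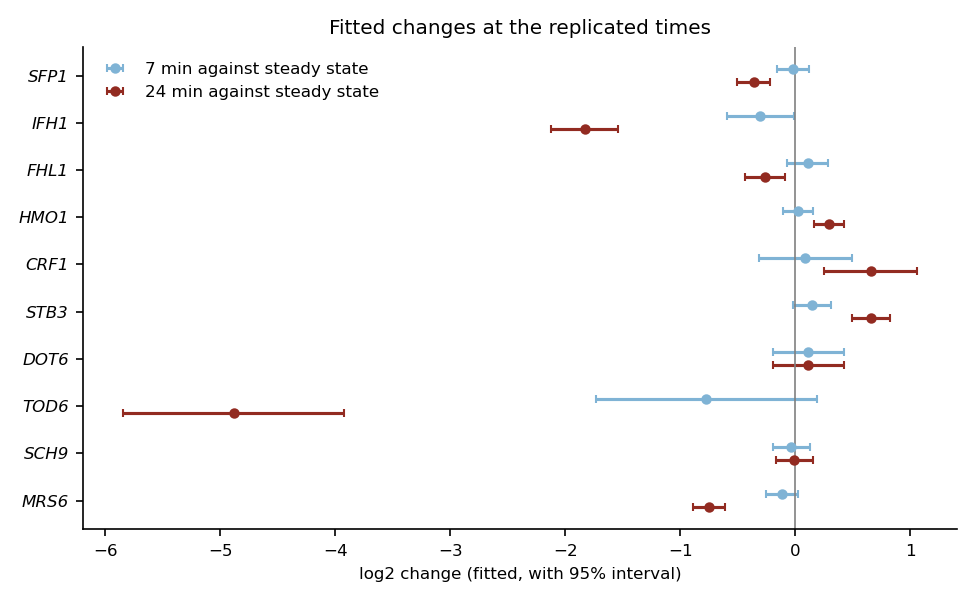
Fitted log2 change of each regulator gene at 7 min (light) and 24 min (dark) against steady state, 3 arrays each, with 95% intervals from the fit. At 24 min TOD6 (-4.89, with its readings below background) and IFH1 (-1.83) lie far to the left of the others, and the intervals of DOT6 and SCH9 include 0.

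Among the activators, IFH1 had the largest fall. It read 10.43, 10.51 and 10.58 at steady state and 8.85, 8.48 and 8.69 at 24 min. The 24 min arrays were all lower by well over the replicate spread, with a change of -1.83 ± 0.13 (adjusted p = 2.3e-06). Among falls at 24 min, in the 5268 genes with both means above background, it ranked 291.

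At 7 min the fermentations differed. IFH1 stood at 10.02 in BY005, 10.46 in BY006 and 10.13 in BY007, which is -0.41, -0.06 and -0.45 from their own steady states. BY006 had hardly moved, and the fitted change of -0.30 ± 0.13 was not called (adjusted p = 0.23). Without the 7 min array of BY006 it was -0.43 and was called (adjusted p = 0.037). That fit called 765 of all genes at 7 min, against 49 with every array kept. In BY005, IFH1 read 10.53 at 3 min, 8.95 at 10 min, 8.12 at 14 min, 9.35 at 56 min and 9.95 at 120 min. The lowest of the 8 arrays was thus that at 14 min, where the change was -2.39 ± 0.18 (adjusted p = 2.5e-05), and the level rose again with each later array.

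FHL1 encodes the forkhead protein that anchors Ifh1, and it moved little. Its steady-state levels were 8.62, 8.56 and 8.59, and its 24 min levels 8.33, 8.18 and 8.46. The groups did not overlap, and the change was -0.26 ± 0.08 (adjusted p = 0.013). With quantile normalization over yeast genes only it shrank to -0.10 (adjusted p = 0.26). In BY005 FHL1 was lowest at 14 min, at 8.15, a change of -0.44 ± 0.11 (adjusted p = 0.0088). That call too was lost with quantile normalization over yeast genes only (-0.26, adjusted p = 0.076).

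SFP1 gave a shallow and passing fall. It read 10.56, 10.60 and 10.68 at steady state and 10.31, 10.18 and 10.26 at 24 min, again without overlap. The change was -0.36 ± 0.06 (adjusted p = 0.00058), or 1.29-fold. In BY005 SFP1 was lowest at 14 min (10.16), then read 10.50 at 56 min and 10.70 at 120 min, where it was 0.09 ± 0.09 from steady state and not called (adjusted p = 0.39).

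HMO1 was the only activator gene of the 4 that rose at 24 min. Its levels were 12.54, 12.67 and 12.72 at steady state and 12.88, 12.94 and 12.98 at 24 min. The change of 0.29 ± 0.06 (adjusted p = 0.0016) fell to 0.12 with quantile normalization over yeast genes only and was then not called (adjusted p = 0.10). In BY005 HMO1 stayed high at 56 min (12.95) and was back at 12.49 at 120 min, and it fell by 0.45 between 24 and 120 min (adjusted p = 0.0024). Against steady state the 120 min level was -0.16 ± 0.08 and not called (adjusted p = 0.12). It was called with quantile normalization over yeast genes only (-0.28, adjusted p = 0.020), with arrays set to the same gene median (-0.25, adjusted p = 0.026) and without the steady-state array of BY005 (-0.21, adjusted p = 0.035).

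Of the repressor genes DOT6 and TOD6, which encode related Myb-like proteins, TOD6 fell and DOT6 was not called. TOD6 stood at 9.57, 9.49 and 9.49 at steady state and at 5.61, 4.21 and 4.08 at 24 min. All 3 late arrays were under the background percentile, so the fall was at least 14.8-fold, counted against 5.63 (adjusted p = 8.6e-06). DOT6 read 11.67, 11.90 and 12.16 at steady state and 11.81, 12.15 and 12.10 at 24 min, and the groups overlapped. Its change was 0.11 ± 0.14 (adjusted p = 0.48), with a 95% interval from -0.20 to 0.42. In BY005 it read 11.66 at 3 min, 11.96 at 7 min, 12.13 at 10 min, 12.04 at 14 min, 11.69 at 56 min and 11.71 at 120 min, and it was called at none of these times.

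At 7 min the response of TOD6 varied between fermentations. TOD6 read 8.41 in BY005, 9.46 in BY006 and 8.36 in BY007, which is -1.17, -0.03 and -1.13 from their own steady states. As with IFH1, BY006 had hardly changed, and the fitted -0.78 ± 0.42 was not called (adjusted p = 0.35). On the 10 min array of BY005 TOD6 had dropped to 6.11, a change of -3.40 ± 0.59 (adjusted p = 0.0024). Among the 5295 genes measured above background on both sides of that comparison, it ranked 5 by size of fall. The 14 min array gave 4.46, below background, and TOD6 then read 6.11 at 56 min and 7.50 at 120 min. On that last array it was still lower than at steady state, by -2.02 ± 0.59 on the log2 scale (adjusted p = 0.015).

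**Figure D3:**
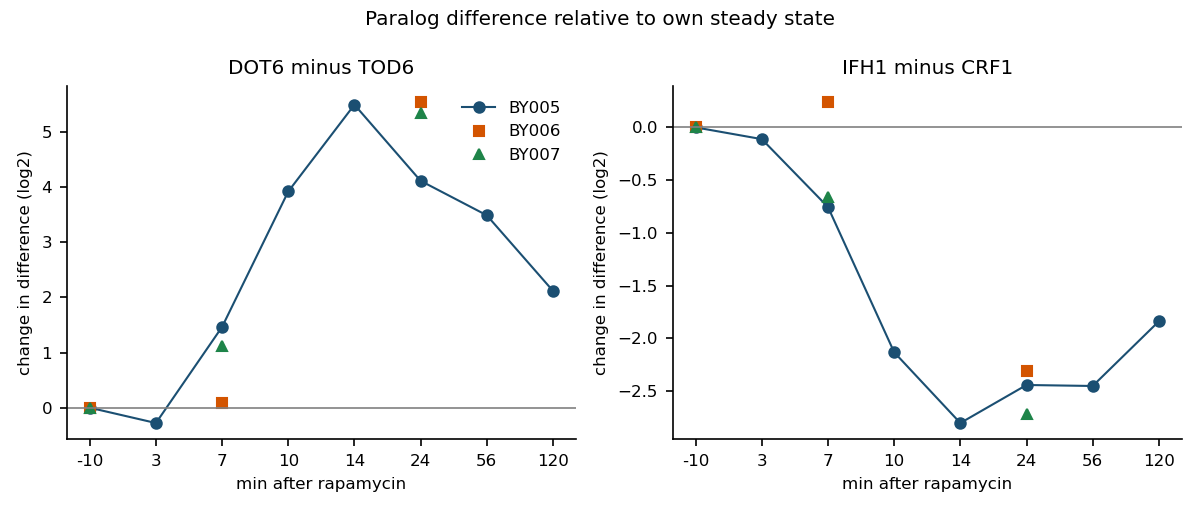
Log2 difference between the members of each related gene pair on each array, as its change from the steady-state array of the same fermentation, against min after rapamycin (evenly spaced, not to scale). DOT6 minus TOD6 (left) lies between 4.11 and 5.54 at 24 min, with TOD6 at its measured intensity below background at 14 and 24 min, and IFH1 minus CRF1 (right) lies between -2.72 and -2.31 at 24 min.

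The difference between DOT6 and TOD6 went from 2.39 ± 0.29 at steady state to 7.39 ± 1.03 at 24 min (mean ± SD, n = 3; exact two-sided permutation p = 0.1). That p is the smallest that 3 against 3 arrays can give. The 24 min value takes TOD6 at its measured intensity, which was below background. With TOD6 held at 5.63 instead, the gap in the single fermentations widened by at least 4.09, 4.12 and 3.79 (log2). At 7 min it had widened by 1.46 and 1.12 in BY005 and BY007 and by 0.08 in BY006. The mean difference was 0.89 larger at 7 min than at steady state (exact two-sided permutation p = 0.2).

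IFH1 and CRF1 are also a related pair, a coactivator and a proposed corepressor on the same partner, and their levels moved towards each other. CRF1 was dim, with 6.51, 6.56 and 6.26 at steady state and 7.38, 6.83 and 7.09 at 24 min. The groups did not overlap, and CRF1 was up by 0.66 ± 0.18 (adjusted p = 0.0085). Its rise from own steady state was smaller in BY006 (0.28) than in BY005 (0.86) and BY007 (0.83). IFH1 minus CRF1 went from 4.06 ± 0.22 to 1.57 ± 0.09 (mean ± SD, n = 3; exact permutation p = 0.1). Over the 6 such comparisons of the gene pairs, the adjusted p of each difference between 24 min and the earlier groups was 0.15 (exact permutation tests, Benjamini-Hochberg), so none passed, though the arrays did not overlap.

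On single BY005 arrays CRF1 stood higher at 56 and 120 min than at 24 min (7.38). The step from 24 to 56 min was not tested, and the call for 120 against 24 min was lost in several alternatives given below. In BY005 it read 6.72, 6.86, 7.16 and 7.00 at 3, 7, 10 and 14 min, then 7.88 at 56 min and 7.87 at 120 min. At 56 min it was up 2.71-fold (1.44 ± 0.25, adjusted p = 0.00082) and at 120 min 2.68-fold (1.42 ± 0.25, adjusted p = 0.00099). The 120 min rise was 0.95 with quantile normalization over yeast genes only and was still called (adjusted p = 0.0012). The rise at 10 min (0.72 ± 0.25, adjusted p = 0.048) was lost with the fermentation as a replicate block (0.49, adjusted p = 0.095) and with quantile normalization over yeast genes only (0.28, adjusted p = 0.22). It was also lost without the steady-state array of any fermentation (adjusted p = 0.067, 0.066 and 0.10), without the 7 min or the 24 min array of BY007 (adjusted p = 0.066 and 0.069), and with arrays at the same gene median (adjusted p = 0.059).

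STB3, whose product binds the RRPE element, rose and stayed up. It read 9.38, 9.61 and 9.65 at steady state and 10.24, 10.15 and 10.23 at 24 min. The 24 min arrays lay close together and all lay higher, by 0.66 ± 0.07 or 1.58-fold (adjusted p = 4.1e-05). In BY005 the level was already 10.01 at 10 min (0.46 ± 0.10, adjusted p = 0.0068) and 10.08 at 14 min. It held at 10.20 at 56 min and 10.08 at 120 min, where it remained 0.53 ± 0.10 above steady state (adjusted p = 0.0018).

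The kinase gene SCH9 was not called in any of the 9 comparisons made. Its levels were 11.01, 10.95 and 10.96 at steady state and 11.09, 10.82 and 10.98 at 24 min, so the groups overlapped. The change at 24 min was -0.01 ± 0.07 (adjusted p = 0.91), and its 95% interval ran from -0.17 to 0.15. The nearest to a call was at 14 min (-0.22 ± 0.10, adjusted p = 0.088). It was called once the 24 min array of BY005 was left out of the shared estimate of the spread (adjusted p = 0.048), or that of BY006 (adjusted p = 0.035).

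MRS6, the escort protein gene, fell by nearly the same amount in all 3 fermentations. It read 12.11, 12.02 and 12.06 at steady state and 11.36, 11.26 and 11.30 at 24 min. The fall was -0.75, -0.76 and -0.75 from own steady state, and -0.75 ± 0.06 in the fit, or 1.68-fold (adjusted p = 6e-06). In BY005 it read 11.87 at 7 min, 11.79 at 10 min and 11.29 at 14 min. Unlike the level of IFH1, that of MRS6 was then nearly flat, at 11.34 at 56 min and 11.46 at 120 min (-0.60 ± 0.09 against steady state, adjusted p = 0.00029). The difference between the courses of IFH1 and MRS6 was not tested. The early fall of MRS6 at 10 min (-0.27 ± 0.09, adjusted p = 0.032) was lost with the replicate block (-0.28, adjusted p = 0.064), without the steady-state array of BY005 or BY007 (adjusted p = 0.067 and 0.062), or with BY007 left out at 24 min (adjusted p = 0.051).

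Set side by side, the comparisons with steady state called none of the 10 at 3 and 7 min. From 10 min on they called 5 to 8, and the share of all genes called was higher then too. At 3 min limma called 0 of 10, and 0% of all genes, of which 287 had an unadjusted p under 0.05 (none of the 10). At 7 min it called 0 of 10 against 0.899% of all genes. An unadjusted p under 0.05 was reached by 1 of the 10, IFH1, and by 1092 of all 5449 genes. At 10 min 5 of 10 were called against 42.0%: STB3 and CRF1 rose, and TOD6, IFH1 and MRS6 fell. With the replicate block 3 of the 10 were called at 10 min. The count was also 3 without the steady-state array of BY005 or BY007 or the 24 min array of BY007.

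At 14 min 6 of 10 were called against 55.5%, with STB3 up and TOD6, IFH1, MRS6, SFP1 and FHL1 down. At 56 min it was 6 of 10 against 71.0%, with CRF1, STB3 and HMO1 up and TOD6, IFH1 and MRS6 down. HMO1 at 56 min (0.30 ± 0.08, adjusted p = 0.0097) was lost with quantile normalization over yeast genes only (0.13, adjusted p = 0.22). At 120 min it was 5 of 10 against 66.7%, with CRF1 and STB3 up and TOD6, IFH1 and MRS6 down. The IFH1 difference at 120 min (-0.56 ± 0.18, adjusted p = 0.022) was lost with the replicate block (-0.53, adjusted p = 0.068) and when BY007's steady-state array was left out (-0.52, adjusted p = 0.0501). The 3, 10, 14, 56 and 120 min values rest on 1 array each, which was assumed to vary like the replicated ones.

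Between 7 and 24 min, with 3 arrays on each side, 8 of 10 were called against 70.3%: STB3, CRF1 and HMO1 rose and TOD6, IFH1, MRS6, FHL1 and SFP1 fell. The sizes were 0.51 ± 0.07 for STB3, 0.57 ± 0.18 for CRF1 and -0.64 ± 0.06 for MRS6. The CRF1 call was lost when single arrays were left out, namely BY005 at 24 min (0.43, adjusted p = 0.062), BY006 at 7 min (0.43, adjusted p = 0.063) and BY007 at 7 min (0.54, adjusted p = 0.052). Quantile normalization over yeast genes only ended the calls of FHL1 (-0.37 to -0.09, adjusted p = 0.35) and HMO1 (0.27 to 0.13, adjusted p = 0.099).

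Between 24 and 120 min, 6 of 10 were called against 46.5%. TOD6 rose at least 3.65-fold (adjusted p = 0.0048), IFH1 by 1.28 ± 0.18 (adjusted p = 0.00066), SFP1 by 0.45 ± 0.09 (adjusted p = 0.0032), CRF1 by 0.77 ± 0.25 (adjusted p = 0.034) and FHL1 by 0.33 ± 0.11 (adjusted p = 0.035), while HMO1 fell. The FHL1 and CRF1 calls were lost with the replicate block (adjusted p = 0.056 and 0.06). FHL1 turned to -0.02 with quantile normalization over yeast genes only (adjusted p = 0.90). CRF1 was 0.42 there (adjusted p = 0.071). It was also not called without the 24 min array of BY006 or of BY007 (adjusted p = 0.07 and 0.066), nor was FHL1 without that of BY005 or BY006 (adjusted p = 0.055 and 0.057) or without the steady-state array of BY006 or BY007 (adjusted p = 0.053 for both), or with arrays at the same gene median (0.26, adjusted p = 0.087). The 24 min array of BY005 stood above the mean of its group in IFH1, and within BY005 alone IFH1 went from 8.85 to 9.95 and TOD6 from below background (5.61) to 7.50.

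The genes these regulators act on gave the scale of the response. In BY005 the median of 154 ribosome biogenesis genes changed from own steady state by -0.40, -1.26, -2.74, -3.50, -3.34 and -1.98 at 7, 10, 14, 24, 56 and 120 min. The median of 20 RNA polymerase I and III genes changed by -0.32, -0.94, -1.83, -2.60, -2.32 and -1.48 at the same times. Cytosolic ribosomal protein genes, 127 measured, changed by -0.02, -0.09, -0.12, -0.36, -2.36 and -2.00. On these single arrays, ribosome biogenesis was thus lowest at 24 min and ribosomal protein genes at 56 min, while IFH1 was lowest at 14 min. Under hybridization control scaling the ribosome biogenesis median was instead lower at 56 min than at 24 min. TOD6 was below background at both 14 and 24 min, so its lowest point cannot be placed between them.

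**Figure D4:**
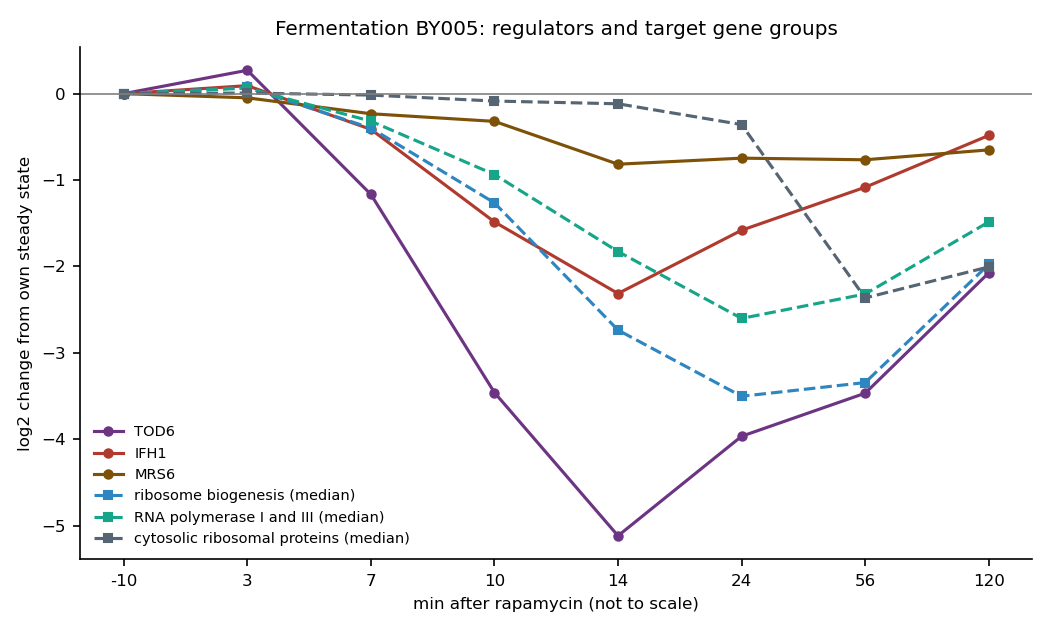
Log2 change from own steady state in fermentation BY005 (1 array a time) for TOD6, IFH1 and MRS6 (solid) and for the median of 3 groups of target genes (dashed), against min after rapamycin, evenly spaced. IFH1 reaches its lowest value at 14 min (-2.31), ribosome biogenesis at 24 min (-3.50) and ribosomal protein genes at 56 min (-2.36). The order of 24 and 56 min for ribosome biogenesis was reversed under hybridization control scaling. TOD6 is drawn at its measured intensity, which was below background at 14 and 24 min, so its depth and order there are not measured.

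At 14 min 151 of 154 ribosome biogenesis genes and 20 of 20 polymerase genes fell, and none rose, where 28.2% of all genes fell. Under hybridization control scaling 57 and 1 of them fell. Of the ribosomal protein genes 30 of 127 fell at 14 min, 119 at 24 min and 127 at 56 min, and none rose, against 30.4% of all genes falling at 24 min and 25.7% at 56 min. The 14 min count was 13 with arrays at the same gene median, 25 with quantile normalization over yeast genes only and 0 with hybridization control scaling. The median over all genes was -0.01 at 14 min, 0.11 at 24 min and 0.20 at 56 min. Under hybridization control scaling the ribosomal protein median at 24 min turned from -0.35 to 0.67, with 1 gene down and 0 up, while at 56 min it was -3.31 with 45 down. The ribosome biogenesis median stayed negative there, at -3.68 at 14 min, -2.76 at 24 min and -4.31 at 56 min. Ribosomal protein probe sets were bright, with a median level of 14.06 to 14.09 at steady state and a top of 14.84 over all genes, where a fall may be understated. At 7 min, where IFH1 and TOD6 in BY006 lay within 0.06 of their steady state, the ribosome biogenesis median was 0.02 in BY006 against -0.40 in BY005 and -0.39 in BY007.

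The genes nearest to each strongly moving regulator were taken by the mean absolute difference between their changes over the 11 arrays after the pulse. Nearest to TOD6 were REI1 (0.20), RSA4 (0.27) and UTP6 (0.29), all of them among the 154 ribosome biogenesis genes. TOD6 was below background on 4 of the 11 arrays, so its distances and their order rest partly on readings that are not measured levels. Nearest to IFH1 were BAS1 (0.14), a regulator of purine and histidine genes, UBP10 (0.17), a deubiquitinase, and SPB4 (0.17), a helicase gene in the ribosome biogenesis list. Nearest to CRF1 were MAL33 (0.13), a maltose regulator gene, CIS1 (0.15) and YPR127W (0.16). These are descriptions, and the 11 arrays come from the same 3 cultures.

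Proteins that work beside these regulators were looked at as listed groups. Of 10 promoter factors and subunits of the CURI complex, which ties Ifh1 to ribosomal RNA processing, 6 fell and 1 rose at 24 min, with a median of -0.52 against 0.11 for all genes. Over all genes 75.0% were called in this comparison, 44.5% up and 30.4% down, and the counts below are to be read against these shares. UTP22 fell by 2.58 ± 0.09 (adjusted p = 7e-08) and RRP7 by 1.40 ± 0.09 (adjusted p = 1.2e-06), both of CURI, while CKB2, a casein kinase 2 subunit of the same complex, rose by 0.30 ± 0.05 (adjusted p = 0.00046). RAP1, the factor beside Fhl1 at ribosomal protein promoters, was chosen after its value was seen and fell by 0.83 ± 0.04 (adjusted p = 5.3e-07). At 120 min UTP22 was still at 8.72 against 11.33 at steady state, a change of -2.61, while IFH1 was 0.56 lower. That difference between UTP22 and IFH1 was not tested.

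**Figure D5:**
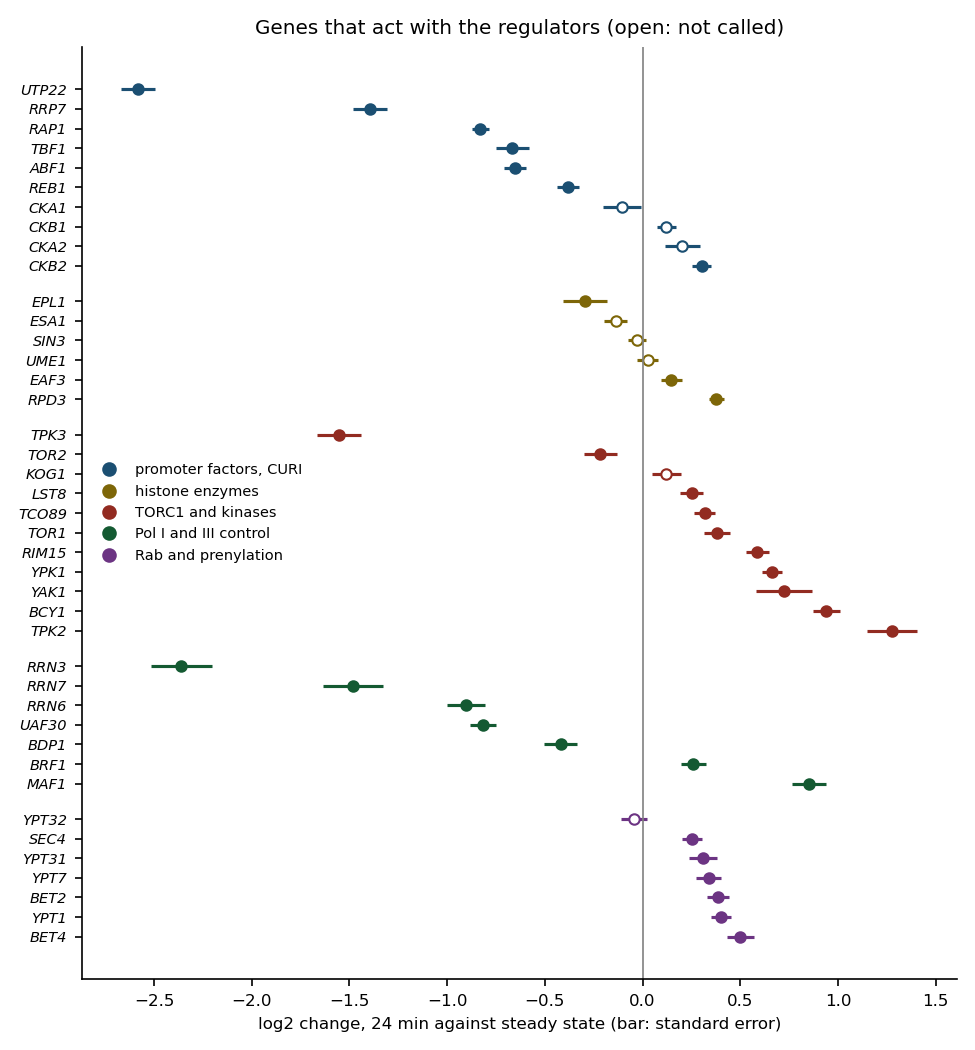
Log2 change at 24 min against steady state (3 arrays each, bars are standard errors) of 41 genes that act with the regulators, in 5 groups, with filled points for genes called at an adjusted p under 0.05. UTP22 (-2.58) and RRN3 (-2.36) lie lowest and TPK2 (1.28) highest.

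Of 7 genes for factors that control RNA polymerases I and III, 5 fell and 2 rose at 24 min (median -0.82), against 30.4% and 44.5% of all genes. RRN3, the initiation factor that brings RNA polymerase I to ribosomal DNA, fell by 2.36 ± 0.16 (adjusted p = 1.8e-06), and RRN7, of the core factor, by 1.48 ± 0.15 (adjusted p = 2.8e-05). MAF1, the repressor of RNA polymerase III, rose by 0.85 ± 0.09 (adjusted p = 2.2e-05), as did BRF1 of TFIIIB by 0.26 ± 0.06 (adjusted p = 0.0052).

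Of 11 measured genes for TORC1 and TORC2 components and nutrient kinases, 8 rose and 2 fell (median 0.38), against 44.5% and 30.4% of all genes. TPK2, a catalytic subunit of protein kinase A, rose by 1.28 ± 0.13 (adjusted p = 2.2e-05) and BCY1, its regulatory subunit, by 0.94 ± 0.07 (adjusted p = 3.6e-06). TPK3, another catalytic subunit, fell by 1.55 ± 0.11 (adjusted p = 2.8e-06), and TOR2 by 0.22 ± 0.09 (adjusted p = 0.046).

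Of 6 histone acetylase and deacetylase genes, RPD3 rose by 0.38 ± 0.04 (adjusted p = 2.9e-05) and EAF3 by 0.15 ± 0.05 (adjusted p = 0.033), EPL1 fell by 0.30 ± 0.11 (adjusted p = 0.04), and 3 were not called, where 75.0% of all genes were called. With quantile normalization over yeast genes only EAF3 (0.04, adjusted p = 0.54) and EPL1 (-0.21, adjusted p = 0.12) were not called. SIN3 was then called as a fall (-0.14, adjusted p = 0.021). With arrays at the same gene median EAF3 was not called (adjusted p = 0.052), while ESA1 was called as a fall (-0.15, adjusted p = 0.039). Of 7 measured Rab and prenylation genes, which share a pathway with Mrs6, 6 rose and none fell (median 0.34), led by BET4 (0.50 ± 0.07, adjusted p = 0.00016) and YPT1 (0.40 ± 0.05, adjusted p = 0.00013). Over all genes 44.5% rose, and with quantile normalization over yeast genes only 4 of the 7 rose. MRS6 itself fell. Under hybridization control scaling the median of all genes at 24 min lay 1.02 higher, and the medians of the promoter factors and of the polymerase factors turned to 0.50 and 0.20. The directions in these 5 groups therefore hold only relative to the other genes.

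The protein-coding genes on either side of each regulator, in the gene order of assembly R64, were read as well. Of these 20 neighbours, 8 fell, 5 rose and 7 were not called at 24 min, against 75.0% of all genes called, and none overlapped the coding region of its regulator. IFH1 lies between UTP13 (YLR222C), of the small-subunit processome, and UCC1 (YLR224W), with a change of -0.00 ± 0.05 (adjusted p = 0.96) for UCC1. The mean of UTP13 fell from 11.64 to 5.11, under the background percentile, though not all of its 24 min arrays lay below that percentile. The neighbours of TOD6, YBL055C (-0.95 ± 0.10, adjusted p = 3.4e-05) and SAS3 (-0.41 ± 0.12, adjusted p = 0.013), fell less than the bound for TOD6. Beside SCH9, which was not called, MNL1 (-0.75 ± 0.09, adjusted p = 8.9e-05) and SKN7 (-0.87 ± 0.05, adjusted p = 6.5e-07) both fell. These neighbours were chosen for mention after their values were seen.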

How the data were processed

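Per the submitters' processing notes, the authors made the deposited intensity values by RMA with affy in R 2.10.0, a method that corrects background, quantile-normalizes arrays and summarises probe sets. The intensities were on a linear scale, so log2 was taken. No scanner files or detection calls were used here, and a genome build (assembly R64) served only for gene annotation and gene order. The table held 10928 probe sets, and the 5498 annotated with a single budding yeast gene gave 5449 genes (47 as means of several probe sets). Fission yeast probe sets (1746) gave the background.

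limma 3.58.1 in R 4.3.3 (lmFit, eBayes) was fitted to 14 arrays in 8 time groups without a block, with 6 residual and 2.43 prior degrees of freedom. It was also run on simulated arrays drawn independently, without a fermentation effect. That run does not show how the fit does on paired arrays. Arrays of one fermentation come from the same culture, so they are paired. Their deviations from group means correlated across genes with r from -0.16 to 0.53, and the fermentation as a replicate block was an alternative. The others were 3 rescalings, filters on dim genes and shared probes, and each replicate left out. The number of arrays limits the precision.

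The members and lists were chosen with earlier results of these data known. All 10 members are named, with the extreme called genes at 24 min in each partner list and the 3 nearest genes of each member that changed by over 1; the target lists' leading genes are not repeated. Lists were described by counts and medians. Promoter and protein sequences were not analysed here.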

Additional observations from a re-analysis of the deposited data

How the results depend on the processing

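Of 90 differences (10 genes in 9 comparisons), leaving out dim genes or shared probes changed 0 calls. Neither filter removed any of the 10 genes, so their levels stayed the same and these filters could test little. The fermentation as a replicate block changed 5 calls, arrays at the same gene median 3 and quantile normalization over yeast genes only 10. The paralog differences kept their direction in each alternative run. Taking the steady-state array of BY005 alone as the baseline of the single-array times moved 30 of 50 differences by more than the replicate SD and turned no called one. A new baseline shifts a gene equally at all 5 times, so these are not separate results. The 30 were all 5 times of HMO1, IFH1, MRS6, SCH9, STB3 and TOD6. Sign changes among differences not called in either fit were not counted.

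The genes called at 7 min against steady state were 49, but 118 with the replicate block, 31 with quantile normalization over yeast genes only, 27 with arrays at the same gene median, 76 without dim genes and 7 to 765 with single arrays left out. The 7 came without the 7 min array of BY007 and the 765 without that of BY006. With single arrays left out, 0 to 1 of the 10 regulators were called at 7 min and 3 to 5 at 10 min. The replicate block gave 3 at 10 min.

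Hybridization control scaling, whose controls varied most, called 0 genes at 7 min, 1 at 10 min, 84 at 14 min, 410 at 24 min, 228 at 56 min and 15 at 120 min against steady state, 194 for 24 against 7 min and 0 for 120 against 24 min. Of the regulators it called 0 at 10 min, 1 at 14 min, 1 at 24 min, 1 at 56 min and 0 at 120 min, 1 for 24 against 7 min and 0 for 120 against 24 min. It turned SFP1 (0.65), FHL1 (0.75) and MRS6 (0.27) at 24 min against steady state, and SFP1 (0.45), FHL1 (0.42) and MRS6 (0.16) against 7 min. It turned STB3 at 10 min (-0.0845), 14 min (-0.39) and 56 min (-0.31) and HMO1 at 56 min (-0.66). For 120 against 24 min it turned SFP1 (-0.87), IFH1 (-0.0458), FHL1 (-0.99) and CRF1 (-0.55). None of these was called, and the cause was not tested. Quantile normalization over yeast genes only turned FHL1 for 120 against 24 min (-0.0193). Promoter motifs and protein identity, which had been planned, were not run.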
